A study of Mus musculus with 9 samples.

Results

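The genes of the synaptic vesicle and its release machinery were followed in the paraventricular nucleus of the hypothalamus (PVN), the region whose neurons secrete vasopressin and oxytocin and set autonomic outflow. The list was fixed by gene symbol, without any rule on measured values, but was chosen with earlier results of these data known. All 36 of its genes were found among the 27179 genes of the count table and passed the filter on low counts. Bulk RNA sequencing had been made from PVN punches of 9 wild-type male C57BL/6 mice (C57BL/6J in the study's methods), 3 independent mice per group, whose diets began at 35 days of age and lasted 12 weeks. Control mice ate chow with 16% of calories from fat, HFD mice ate a high fat diet with 60%, and HFD+Mino mice ate the same high fat diet and also took minocycline, a tetracycline antibiotic that dampens microglial activation, at a daily dose of 40 mg/kg over the final 6 weeks. A punch holds every cell type of the region and can hold neighbouring tissue. In bulk tissue, fewer cells of a type and less RNA per cell cannot be told apart.

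Transmitter is stored in synaptic vesicles and released when an action potential opens calcium channels at the active zone. The vesicle protein synaptobrevin pairs with syntaxin and SNAP-25 on the plasma membrane to form the SNARE complex, which pulls the membranes together. Munc13 and RIM prime the vesicle, complexin holds the complex ready, and synaptotagmin senses the calcium. NSF and its adaptors, the SNAPs, then take the complex apart, and dynamin, amphiphysin and synaptojanin retrieve the membrane. In the PVN this machinery serves the glutamate and GABA terminals that contact neurosecretory cells. The terminals of those cells themselves lie in the pituitary and median eminence. The counts given here are of RNA in the punch and measure neither terminals nor protein.

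Several libraries stood apart before any group was compared. HFD replicate 1 was the shallowest library, with 17728590 counts, and Control replicate 1 the deepest, with 42326213. The latter went against its tissue label, with 0.149 CPM of the vasopressin gene Avp and 0.770 CPM of the oxytocin gene Oxt. CPM is a gene's count for each 1000000 counts of the library after TMM scaling. The PVN factor Otp had no count there, but it was at most 2.77 CPM in any library. The PVN gene Crh was at 20.6 CPM in Control replicate 1, above the 18.0 CPM of Control replicate 2. The 7 mature oligodendrocyte markers of Control replicate 1 summed to 29892 CPM, against 2330.4 to 6990.4 CPM in the other 8 libraries. HFD+Mino replicates 1 and 2 had the opposite character, with 7 PVN neuron markers summing to 37734 and 31924 CPM, while replicate 3 had 3115 CPM. The ribosomal precursor Rn45s took 0.430, 0.367 and 0.350% of counts in HFD and between 0.0266% and 0.113% in the other 6 libraries. The part of these differences in the results that follow was not tested.

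The 36 genes together held 1.60, 1.47 and 1.58% of the counts in Control, 1.25, 1.49 and 1.61% in HFD and 1.06, 0.895 and 1.34% in HFD+Mino. Levels between genes were compared as CPM per kilobase of exon. Over the 9 libraries Rab3a was the highest of the 36, at a mean of 543 CPM per kb, followed by Snap25 at 398, Syp at 213 and Vamp2 at 211 CPM per kb. At the other end Unc13b, Doc2b, Sv2c, Syt2 and Slc17a7 lay between 0.501 and 1.07 CPM per kb. The active zone genes were low as a group, with Rims2 their highest at 7.41 CPM per kb.

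**Figure D1:**
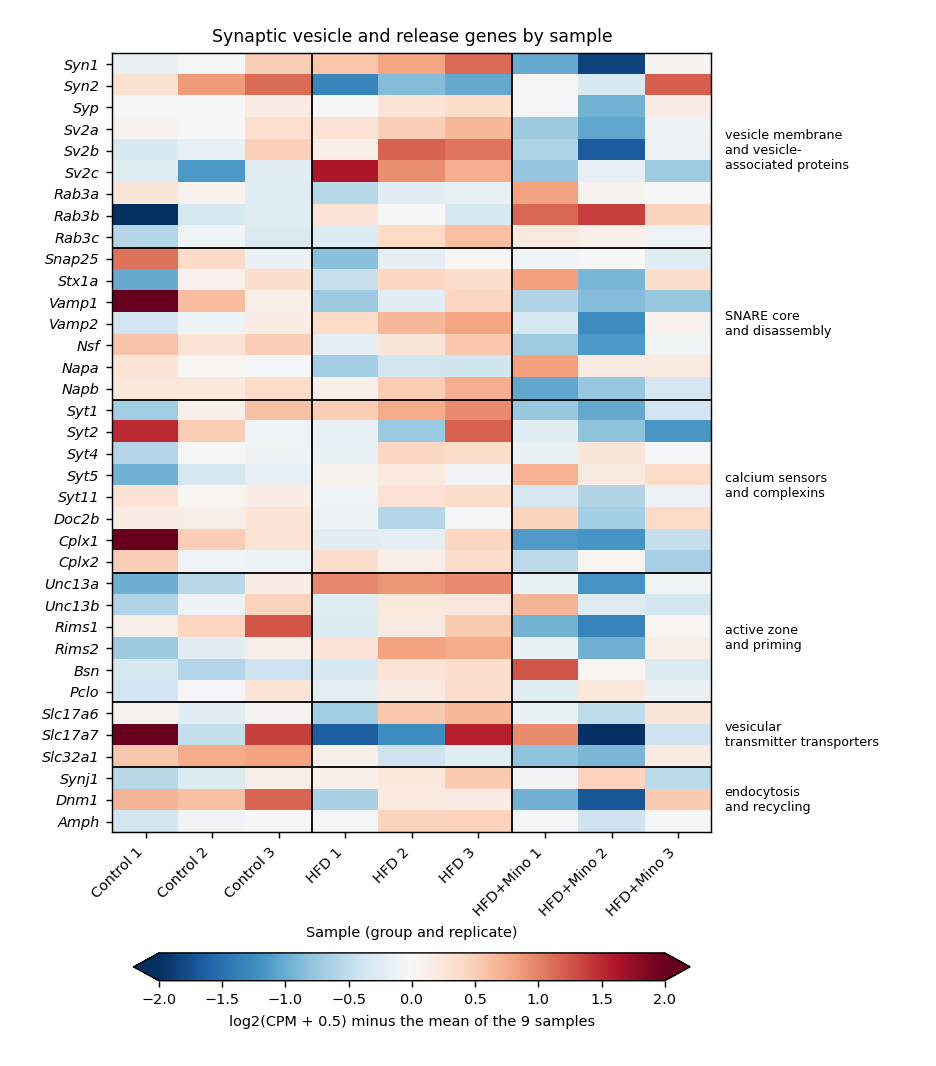
Each row is 1 of the 36 genes and each column 1 of the 9 mice; the colour is log2(CPM + 0.5) minus the mean of the 9 samples, from -2 (blue) to 2 (red), and lines separate groups and roles. Control replicate 1 is the darkest red for Vamp1, Cplx1 and Slc17a7, Syn2 is blue in all 3 HFD mice, and HFD+Mino replicate 2 is the lowest sample for 18 genes.

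None of the 36 genes passed the test in any comparison, that is, an FDR (p adjusted over all genes tested by the Benjamini-Hochberg method) under 0.01 with a change of at least 1.5-fold in edgeR's quasi-likelihood test. Across the 17344 genes tested, 2.13% were called in the 3-way test (HFD the highest or lowest group) and 1.74% in HFD against Control. The shares called were 4.15% in HFD+Mino against HFD and 0% in HFD+Mino against Control. In the 3-way test the 1.5-fold change was that of HFD from the mean of all 3 groups, HFD included. The lowest edgeR FDR among the 36 genes was 0.0170 in the 3-way test (Sv2c), 0.0163 in HFD against Control (Syn2), 0.0118 in HFD+Mino against HFD (Napb) and 0.132 in HFD+Mino against Control. At an unadjusted p under 0.05 edgeR gave 18 genes in the 3-way test, 11 in HFD against Control (5 higher and 6 lower in HFD), 17 in HFD+Mino against HFD (4 higher and 13 lower in HFD+Mino) and 14 in HFD+Mino against Control (3 higher and 11 lower). Of all genes, 11.3% were higher and 9.22% lower in HFD against Control, 21.6% higher and 19.8% lower in HFD+Mino against HFD, and 12.7% higher and 8.63% lower in HFD+Mino against Control. The shares of all genes tested at that p were 39%, 20.5%, 41.3% and 21.3%, beside 50%, 30.6%, 47.2% and 38.9% of the 36 genes. For the 3-way test these counts and shares did not require HFD to be the highest or lowest group. Among them were Rab3b, Vamp1 and Cplx1, for which HFD was the middle group. Without Control replicate 1, edgeR gave 4 of the 36 genes at an unadjusted p under 0.05 in HFD against Control, where the share of all genes was 13.6%.

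DESeq2 with the same thresholds called 6 of the 36 genes in the 3-way test, 3 in HFD against Control, 10 in HFD+Mino against HFD and 3 in HFD+Mino against Control, where it called 13.6%, 6.91%, 23% and 1.59% of all genes. In HFD against Control these were Sv2c and Unc13a, higher in HFD, and Syn2, lower. In HFD+Mino against HFD Syn2 and Napa were higher in HFD+Mino, and Syn1, Sv2a, Sv2b, Sv2c, Syt1, Vamp2, Napb and Unc13a lower. In HFD+Mino against Control Rab3b was higher and Cplx1 and Vamp1 were lower in HFD+Mino. With the replicate number of Control and HFD+Mino as a block, edgeR called 4, 1, 9 and 0 of the 36 genes, and 18.3%, 7.59%, 26% and 3.18% of all genes. Its 1 gene in HFD against Control was Syn2, and the 4 of the 3-way test were Syn1, Syn2, Syt1 and Napa. Leaving out HFD+Mino replicate 3 (1 of the 3 mice of its group) gave 3, 1, 8 and 4 genes and 13.4%, 3.08%, 21.4% and 6.28% of all genes. Syn2 was again the 1 gene in HFD against Control, and the 4 genes in HFD+Mino against Control, all lower in HFD+Mino, were Nsf, Napb, Dnm1 and Slc32a1. Without Control replicate 1 or without Control replicate 3, 1 gene was called, Syt1 in HFD+Mino against HFD, where it was lower in HFD+Mino. The shares of all genes were then 1.75%, 1.01%, 5.27% and 0% without replicate 1 and 2.71%, 1.7%, 4.78% and 0% without replicate 3. In HFD+Mino against HFD the 4 settings that called the most of the 36 genes (8 to 10) were those that called the most of all genes (21.4% to 27.4%).

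**Figure D2:**
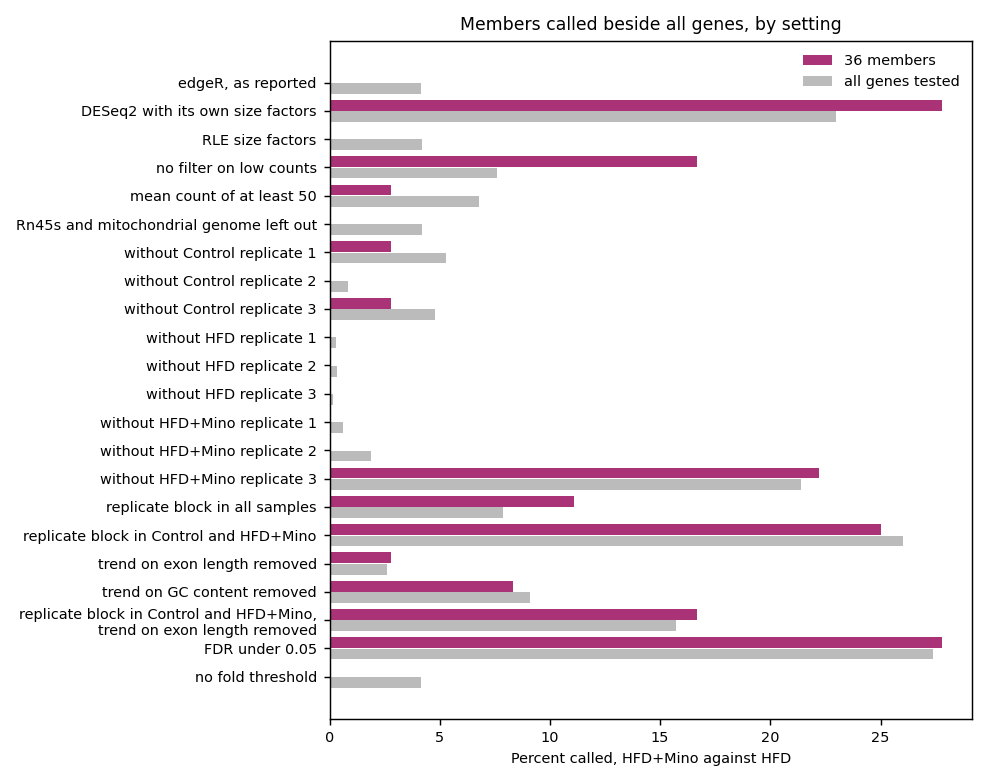
Bars give the percent called in HFD+Mino against HFD under each setting, for the 36 genes (purple) and for all genes tested (grey). The purple bar is absent in the fit as reported, where 4.15% of all genes were called, and reaches 27.8% with DESeq2, where 23% of all genes were called.

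The middle of the list lay off that of all genes. The median log2 fold change of the 36 genes was 0.18 in HFD against Control, -0.43 in HFD+Mino against HFD and -0.28 in HFD+Mino against Control, against medians of 0.00, 0.01 and -0.02 over all genes tested. The first became 0.33 without Control replicate 3, 0.32 without HFD replicate 1 and 0.07 without HFD replicate 3. The second became -0.28 without HFD replicate 3, while the third was -0.16 when Control replicate 3 and -0.12 when HFD+Mino replicate 2 was left out. In HFD+Mino against HFD 26 of the 36 genes had a negative log2 fold change. In the same comparison the 12 general neuron markers had a median of -0.10, with 6 positive and 6 negative, and the 7 PVN neuron markers one of 0.98. The 3 GABA neuron markers had a median of -1.17, all negative. The median was -0.84 for the 7 astrocyte markers, with 5 negative, -1.08 for the 3 markers of oligodendrocyte precursors, all negative, -0.47 for the 7 mature oligodendrocyte markers, -0.27 for the 6 microglial markers and -0.45 for the 4 endothelial markers. The 6 thalamus markers had a median of -0.76, the 4 tested markers of cortex and hippocampus -0.11, the 4 ependymal markers 1.38 and the 3 choroid plexus markers -0.02. The part of these cell types in the displacement of the 36 genes was not tested. Over all genes the fold changes also went with exon length. The exons of the 36 genes had a median length of 5395.5 nt against 4334 nt over all tested genes with a length. Across those 15625 genes length had a Spearman correlation of 0.32 with the log2 fold change of HFD against Control. It was -0.49 with that of HFD+Mino against HFD and -0.33 with that of HFD+Mino against Control. Across the 36 genes the correlations were weaker, at 0.20, -0.24 and -0.02 in the same order. With a smooth trend on exon length removed from each library, the 3 medians became 0.04, -0.16 and -0.09. Those of all genes tested were then -0.03, 0.05 and 0.00. With the replicate block as well, the medians of the 36 genes were -0.12, -0.19 and -0.16, so that the first changed sign. Those of all genes tested were -0.04, 0.00 and -0.02. Removing a trend on GC content instead gave 0.12 for HFD against Control, against -0.04 over all genes tested. After removal of the length trend edgeR called 1, 1, 1 and 0 of the 36 genes in the same order of comparisons as above, and 2.12%, 2.37%, 2.63% and 0% of all genes.

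**Figure D3:**
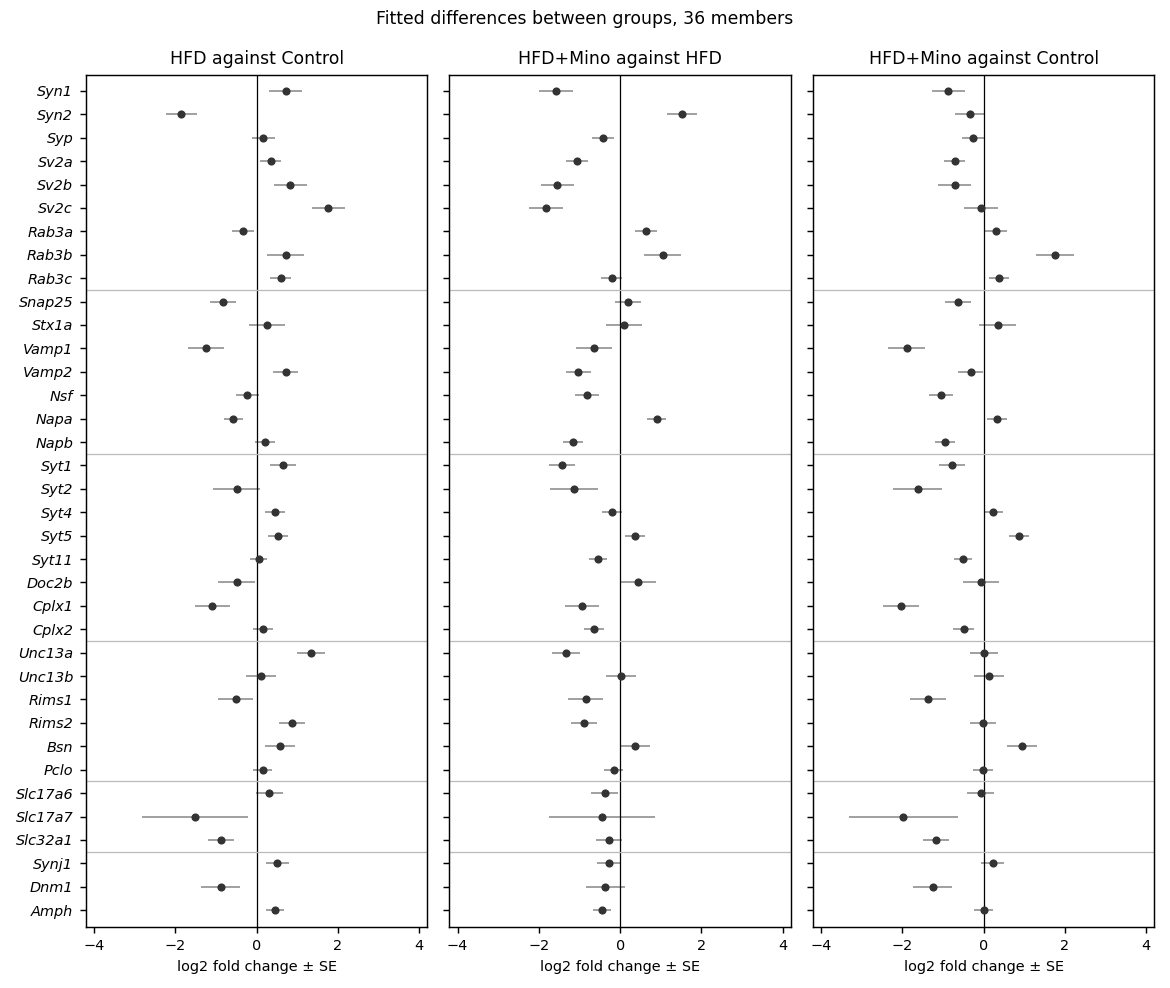
Points are fitted log2 fold changes of the 36 genes with bars of 1 SE in 3 comparisons of 3 mice against 3; grey lines separate the roles. Syn2 lies at -1.86 in HFD against Control and at 1.52 in HFD+Mino against HFD, while Syn1, Sv2a, Sv2b, Sv2c, Napb, Syt1, Unc13a and Vamp2 lie between -1.83 and -1.03 in the latter.

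Among the vesicle-associated proteins the pair of synapsins, which tether vesicles to one another and to actin in the reserve pool, had log2 differences of opposite sign. Because the contrast is within one family, the bases before the start of each gene are shown, with the GC box (GGGCGG, bound by Sp1), the cAMP response element (TGACGTCA) and the left part of the RE1 element (TTCAGCACC, bound by the neuronal repressor REST) in capitals wherever either strand holds them. The sequences are from RefSeq (GRCm38.p6), 250 bases each, 5′ to 3′ on the gene's strand: Syn1 at chrX:20920919-20921168, minus strand, and the first listed start of Syn2 at chr6:115134652-115134901, plus strand.
Syn1: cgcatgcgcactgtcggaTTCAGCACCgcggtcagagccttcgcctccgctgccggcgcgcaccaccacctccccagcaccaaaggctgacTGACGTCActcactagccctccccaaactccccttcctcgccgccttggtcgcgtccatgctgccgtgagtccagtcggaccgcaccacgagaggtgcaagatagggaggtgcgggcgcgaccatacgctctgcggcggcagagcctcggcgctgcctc
Syn2: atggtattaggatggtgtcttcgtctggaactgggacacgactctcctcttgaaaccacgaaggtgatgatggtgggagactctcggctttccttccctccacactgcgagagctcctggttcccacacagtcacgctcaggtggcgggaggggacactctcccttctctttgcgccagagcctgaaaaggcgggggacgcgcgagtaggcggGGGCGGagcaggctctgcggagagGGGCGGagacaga
The Syn1 window holds 1 cAMP response element and 1 RE1 part and no GC box, and the Syn2 window holds 2 GC boxes and neither of the others. Over the first listed promoter of 27025 genes, 32.9% held a GC box, 1.62% the cAMP response element and 0.285% the RE1 part. Doc2b, Rims2, Snap25, Syt4, Syt5 and Vamp2 were not matched. Of the other 30 genes of the list, 20 held a GC box (66.7%), and Syn1 alone held either of the other motifs. The median GC content of these 30 windows was 61.2%, against 52.0% over all genes.

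Syn1 was at 212, 228 and 329 CPM in Control, 343, 405 and 512 CPM in HFD and 115, 64.5 and 242 CPM in HFD+Mino. All HFD values lay above the 6 others, and the HFD+Mino values did not overlap with HFD. The log2 difference was 0.71 ± 0.40 (SE; edgeR FDR = 0.349) in HFD against Control and -1.58 ± 0.41 (SE; edgeR FDR = 0.0198) in HFD+Mino against HFD. Syn2 was at 321, 469.7 and 562 CPM in Control, 104, 142 and 128 CPM in HFD and 266, 209 and 593 CPM in HFD+Mino. All HFD values lay below the 6 others, and Control and HFD+Mino overlapped. Its log2 difference was -1.86 ± 0.38 (SE; edgeR FDR = 0.0163) in HFD against Control, the lowest FDR of the list in that comparison, and 1.52 ± 0.37 (SE; edgeR FDR = 0.0166) in HFD+Mino against HFD. Syn2 was the gene that passed in all 3 comparisons with a call once the length trend was removed. Its exons share 90 nt with Timp4 on the opposite strand, a gene at 83.8, 74.2 and 87.2 CPM in HFD, at 201, 124 and 87.6 CPM in Control and at 159.7, 142 and 107 CPM in HFD+Mino. Timp4, like Syn2, was lower in every HFD mouse than in the other 6. The part of shared reads in the Syn2 values was not tested. Other genes of the list share more exonic bases, with 875 nt for Syp (Gm14703), 697 nt for Slc32a1 (Gm14205) and 495 nt for Unc13a (Colgalt1). The part of shared reads in their values was not tested either.

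Within one library the share of a gene in a sum of related genes does not depend on the scaling between libraries. It can still carry a library's trend on exon length, which was not removed from the shares. Syn2 made up 41.5, 49.2 and 44.5% in Control, 12.4, 14.1 and 10.5% in HFD and 52.0, 60.4 and 53.5% in HFD+Mino of the summed CPM per kb of Syn1 and Syn2. The 3 groups did not overlap, and the HFD mice lay apart from the other 6 by more than the whole spread within any group. Among SNAPs, Napa made up 71.4, 68.1 and 64.4% in Control, 58.3, 56.8 and 52.5% in HFD and 89.8, 82.0 and 77.6% in HFD+Mino of Napa and Napb, and again the groups did not overlap. For RIM, Rims1 made up 28.1, 25.5 and 32.6% in Control, 12.8, 12.2 and 15.7% in HFD and 10.5, 13.4 and 17.0% in HFD+Mino of Rims1 and Rims2, higher in every Control mouse than in both high fat diet groups. Cplx2 was a small part of the complexins, with 2.95, 5.50 and 6.09% in Control, 11.3, 9.65 and 7.58% in HFD and 11.5, 16.8 and 6.91% in HFD+Mino, lower in all 3 Control mice than in the other 6. With the other tested genes of each family in the sum (Syn3, Napg, Rims3 with Rims4, and Cplx3), these separations were the same, the Syn2 share being 10.3% to 13.9% in HFD and 40.9% to 58.8% in the other 6 mice. For Munc13, Unc13b made up 9.27% to 12.9% of Unc13a and Unc13b in HFD, 23.0% to 24.5% in Control and 16.2% to 31.2% in HFD+Mino. HFD thus lay below the other 6 mice. With Unc13c in the sum HFD and Control overlapped, at 4.02% to 6.60% and 5.86% to 12.7%. HFD+Mino, at 9.10% to 19.4%, still lay above HFD. Of the pairs named here, the gene with the longer exons had a higher share in HFD than in Control for Napb, Rims2 and Cplx2. Their lengths were 7051 nt (Napa 3786), 10389 nt (Rims1 7362) and 4928 nt (Cplx1 2189). The longer gene had a lower share for Syn2, at 7031 nt (Syn1 3299), and Unc13b, at 22746 nt (Unc13a 12623). The same held for Vamp1, at 10167 nt (Vamp2 3809), with 6.85% to 28.3% in Control and 3.36% to 5.59% in HFD. The part of exon length in the shares was not tested. These families were picked after their values were seen, so the shares carry no test.

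**Figure D4:**
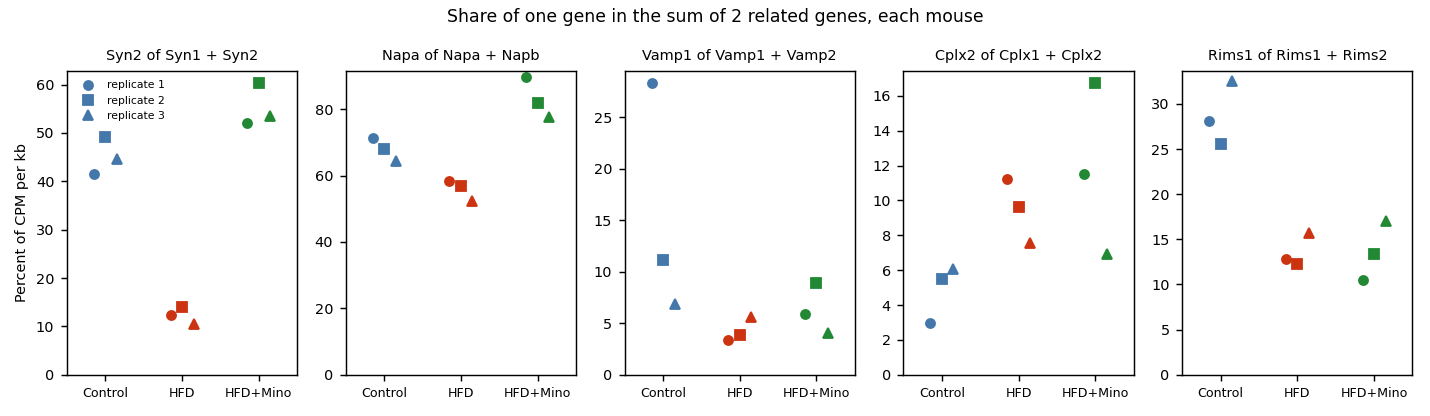
Each point is 1 mouse (circle, square and triangle for replicates 1 to 3), and the vertical axis, starting at 0, is the percent that 1 gene holds of the summed CPM per kb of 2 related genes. The Syn2 share lies at 10.5% to 14.1% in HFD and at 41.5% to 60.4% in the other 6 mice, and the Vamp1 share of 28.3% in Control replicate 1 stands far above the rest.

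The SV2 proteins are vesicle glycoproteins with the fold of a transporter, of which Sv2a is the widespread form. Sv2c, the form of older brain regions such as the basal ganglia, was at 3.63, 1.72 and 3.74 CPM in Control, 14.5, 8.87 and 7.59 CPM in HFD and 2.33, 3.86 and 2.51 CPM in HFD+Mino. All HFD values lay above the 6 others, at levels near the lower end of the list. Its log2 difference was 1.76 ± 0.41 (SE; edgeR FDR = 0.0312) in HFD against Control and -1.83 ± 0.42 (SE; edgeR FDR = 0.0134) in HFD+Mino against HFD. Sv2b had log2 differences of 0.83 ± 0.40 and -1.54 ± 0.41 (SE; edgeR FDR = 0.0206) in the same order. Sv2a averaged 411 ± 51.5 CPM over the Control mice, 523 ± 67.8 over the HFD mice and 251 ± 87.3 over the HFD+Mino mice (SD, n = 3). All 3 HFD+Mino mice were below the other 6 for Sv2a, with -1.06 ± 0.26 (SE; edgeR FDR = 0.0168) against HFD. Synaptophysin (Syp), an abundant integral vesicle protein, differed by 0.16 ± 0.28 and -0.42 ± 0.28 (SE; edgeR FDR = 0.278).

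The Rab3 GTPases dock vesicles by binding RIM. Rab3a, the highest of the 36 genes per kilobase, was at 1385, 1229 and 975 CPM in Control, 799, 1007 and 1042 CPM in HFD and 2045, 1223 and 1178 CPM in HFD+Mino. HFD and HFD+Mino did not overlap, though HFD+Mino replicates 2 and 3 lay within the Control range, and the log2 difference was 0.64 ± 0.27 (SE; edgeR FDR = 0.0917). Rab3b, a form abundant in endocrine cells such as those of the pituitary, was at 52.5, 208 and 221 CPM in Control, 317, 262 and 209.8 CPM in HFD and 584, 685 and 360.1 CPM in HFD+Mino. It was higher in every HFD+Mino mouse than in the other 6, with 1.76 ± 0.46 (SE; edgeR FDR = 0.132) against Control. In the same order of libraries the PVN marker sum was 28.7, 940.1 and 2569 CPM in Control, 2495, 3211 and 3731 in HFD and 37734, 31924 and 3115 in HFD+Mino. In the HFD+Mino mice this sum was mostly Avp and Oxt. Control replicate 1 was the lowest of the 9 for both measures and HFD+Mino replicates 1 and 2 were the highest pair for both, and the part of PVN neuron content in the Rab3b values was not tested. Without Control replicate 1 the log2 difference of Rab3b against Control was 1.34. Rab3c differed by 0.59 ± 0.25 (SE; edgeR FDR = 0.214) in HFD against Control.

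Of the SNARE genes, Snap25, the plasma membrane partner with the highest level per kilobase in this role, was at 5366, 3329.6 and 2318 CPM in Control, 1428, 2207 and 2574 CPM in HFD and 2412, 2539.5 and 2138 CPM in HFD+Mino. Control replicate 1 was the highest and HFD replicate 1 the lowest of the 9, and HFD and HFD+Mino overlapped. The log2 difference of -0.83 ± 0.32 (SE; edgeR FDR = 0.174) in HFD against Control became -0.45 without Control replicate 1. Vamp1, the synaptobrevin prominent in brainstem and spinal cord, showed this more strongly, at 598, 230.2 and 164 CPM in Control, 90.2, 127 and 202 CPM in HFD and 98.3, 81.4 and 88.0 CPM in HFD+Mino. Without Control replicate 1, the library rich in oligodendrocyte markers, its log2 difference between HFD and Control was -0.50, against -1.24 ± 0.44 with it. Vamp2, the main synaptobrevin of the forebrain, was at 569, 690.3 and 836 CPM in Control, 973, 1182 and 1282 CPM in HFD and 593, 312 and 781 CPM in HFD+Mino. Every HFD mouse lay above the other 6, with 0.71 ± 0.31 (SE; edgeR FDR = 0.226) against Control and -1.03 ± 0.31 (SE; edgeR FDR = 0.0339) in HFD+Mino against HFD. Syntaxin 1A (Stx1a) spread widely within groups, from 36.3 to 94.0 CPM in Control and from 38.9 to 131 CPM in HFD+Mino.

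Of the genes that take SNARE complexes apart, the pair of SNAPs had log2 differences of opposite sign. Napb, the beta-SNAP of brain, was at 519, 515 and 582 CPM in Control, 479, 633 and 739.7 CPM in HFD and 217, 263 and 354 CPM in HFD+Mino. All HFD+Mino values lay below the 6 others, and the log2 difference against HFD was -1.15 ± 0.25 (SE; edgeR FDR = 0.0118), the lowest FDR of the list in any comparison. Napa, the alpha-SNAP found in every tissue, was at 694, 589 and 564 CPM in Control, 359.9, 446 and 438 CPM in HFD and 1021, 642 and 658 CPM in HFD+Mino. It was lower in all HFD mice than in the other 6, with -0.57 ± 0.24 (SE; edgeR FDR = 0.201) against Control and 0.90 ± 0.24 (SE; edgeR FDR = 0.0205) in HFD+Mino against HFD. The ATPase Nsf lay at 1184 ± 118 CPM in Control and 575 ± 215 in HFD+Mino (SD, n = 3), a log2 difference of -1.04 ± 0.29 (SE; edgeR FDR = 0.132).

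Among the calcium sensors Syt1, the sensor of fast release in forebrain neurons, was at 332, 578 and 808 CPM in Control, 755, 906 and 1038 CPM in HFD and 318, 265 and 415 CPM in HFD+Mino. HFD+Mino lay below every HFD mouse but overlapped with Control, whose replicate 1 was at 332 CPM. The log2 difference in HFD+Mino against HFD was -1.44 ± 0.32 (SE; edgeR FDR = 0.0127). Syt11, a synaptotagmin that does not bind calcium and had the highest level per kilobase in this role, was at 1070.2, 905 and 968 CPM in Control, 846, 1071 and 1128 CPM in HFD and 692, 576 and 809.7 CPM in HFD+Mino. All HFD+Mino mice were below the other 6, and the log2 difference was -0.55 ± 0.22 (SE; edgeR FDR = 0.0785) against HFD. Syt5, a calcium-binding synaptotagmin found on dense-core vesicles, was at 536, 372 and 429 CPM in HFD+Mino, where replicates 1 and 3 lay above every other mouse, and at 169, 262 and 296 CPM in Control. It differed by 0.88 ± 0.25 (SE; edgeR FDR = 0.132) from Control. Syt2 and Doc2b were at most 13.8 CPM in any library, and Syt4 differed by no more than 0.45 log2 units in any comparison.

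Complexins first clamp and then promote fusion. Cplx1 was at 1037, 367 and 316 CPM in Control, 225, 230.1 and 351 CPM in HFD and 119, 114 and 188 CPM in HFD+Mino. All HFD+Mino mice lay below the other 6, and Control replicate 1 was more than 2-fold above any other library. The log2 difference in HFD+Mino against Control was -2.03 ± 0.44 (SE; edgeR FDR = 0.132), and -1.29 without Control replicate 1. Cplx2 differed by -0.64 ± 0.26 (SE; edgeR FDR = 0.0820) in HFD+Mino against HFD, with no overlap.

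**Figure D5:**
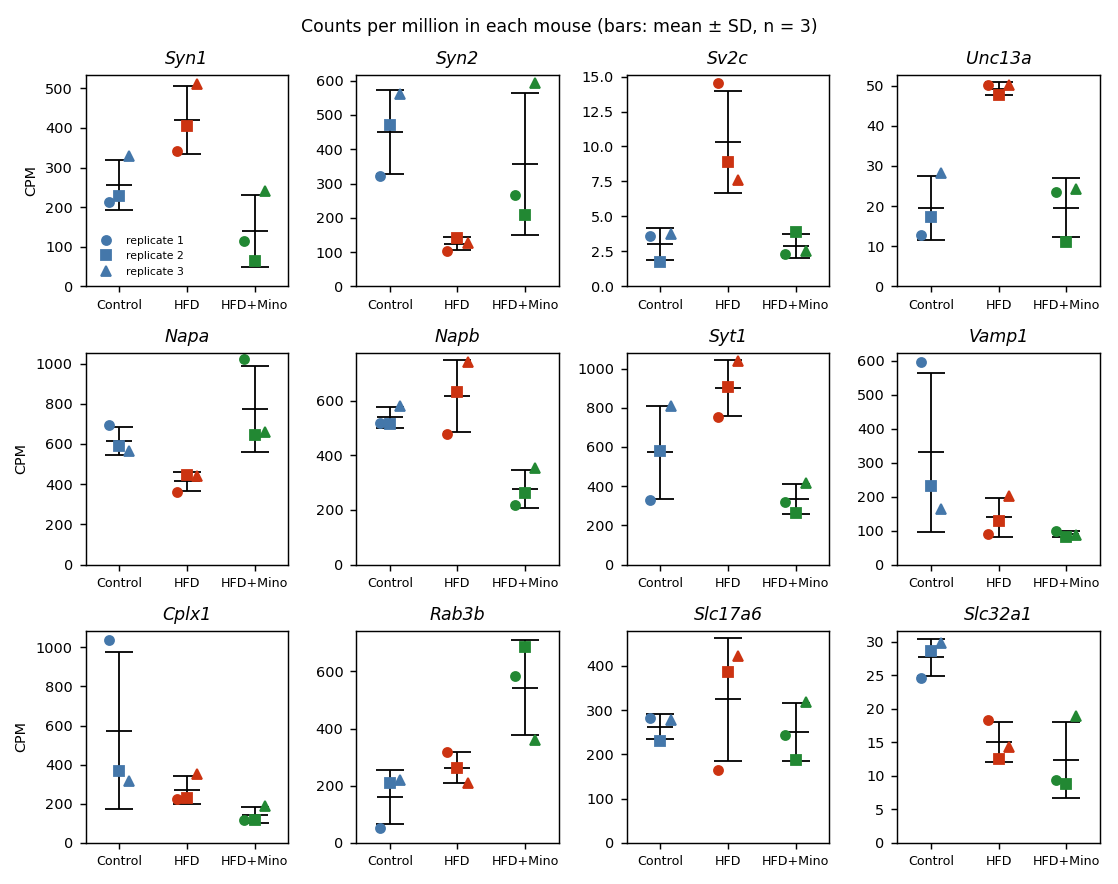
Points are CPM in each mouse (circle, square and triangle for replicates 1 to 3) for 12 of the 36 genes, with black bars for the group mean ± SD (n = 3), on axes that start at 0. HFD lies above the other 6 mice for Syn1, Sv2c and Unc13a and below them for Syn2 and Napa, and Control replicate 1 lies far above the rest for Vamp1 and Cplx1.

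At the active zone, Unc13a, the Munc13 that primes most vesicles, was at 12.7, 17.4 and 28.3 CPM in Control, 50.2, 47.5 and 50.1 CPM in HFD and 23.4, 11.1 and 24.2 CPM in HFD+Mino. The HFD mice were tightly grouped and above the 6 others. The log2 difference was 1.34 ± 0.35 (SE; edgeR FDR = 0.0480) in HFD against Control and -1.33 ± 0.35 (SE; edgeR FDR = 0.0204) in HFD+Mino against HFD, so that Control and HFD+Mino differed by 0.01 ± 0.34. Rims2, a RIM scaffold and the highest of the role per kilobase, was at 42.8, 61.0 and 77.9 CPM in Control, 85.5, 126 and 121 CPM in HFD and 65.2, 36.6 and 77.4 CPM in HFD+Mino. It too was highest in every HFD mouse, with 0.87 ± 0.31 (SE; edgeR FDR = 0.144) and -0.89 ± 0.31 (SE; edgeR FDR = 0.0558). Its paralog Rims1 had lower values in all HFD+Mino mice than in every Control mouse, with -1.37 ± 0.44 (SE; edgeR FDR = 0.141). The large scaffold Bassoon (Bsn) was at 89.8, 38.3 and 30.2 CPM in HFD+Mino, where replicate 1 alone stood above the 47.4 CPM of the highest HFD mouse. Piccolo (Pclo) and Unc13b differed by at most 0.16 log2 units in any comparison.

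The vesicular transporter proteins set which transmitter a terminal loads, and here only their RNA in the punch was measured. Slc17a6 (VGLUT2), the glutamate transporter of hypothalamus and thalamus, was at 282, 229.8 and 277 CPM in Control, 165, 387 and 422 CPM in HFD and 243, 187 and 318 CPM in HFD+Mino. All 3 groups overlapped, and HFD replicate 1 was far below its group mates. The 6 thalamus markers summed to 158, 565 and 606 CPM in the HFD mice and 391, 71.7 and 397 CPM in the HFD+Mino mice, low in the same libraries, and the part of thalamic tissue in the Slc17a6 values was not tested. Slc17a7 (VGLUT1), the transporter of cortex and hippocampus, was at 22.1, 1.98 and 8.42 CPM in Control, 0.602, 0.957 and 9.66 CPM in HFD and 6.16, 0 and 2.10 CPM in HFD+Mino, and markers of those regions summed to at most 7.87 CPM in any library. Slc32a1 (VGAT), which loads GABA, was at 24.6, 28.6 and 29.8 CPM in Control, 18.3, 12.4 and 14.2 CPM in HFD and 9.38, 8.73 and 18.9 CPM in HFD+Mino. All Control mice lay above the other 6, with -0.89 ± 0.32 (SE; edgeR FDR = 0.141) in HFD and -1.16 ± 0.32 (SE; edgeR FDR = 0.132) in HFD+Mino. Gad1, an enzyme that makes GABA, was at 611, 745 and 646 CPM in Control, 529, 293 and 485 CPM in HFD and 74.6, 203 and 331 CPM in HFD+Mino, and Gad2, the other such enzyme, was at 185, 423 and 398 CPM in Control, 492, 286 and 475 CPM in HFD and 125, 238 and 193 CPM in HFD+Mino. Control lay above the other 6 mice for Gad1, as for Slc32a1, while for Gad2 Control overlapped with both other groups. The part of GABA neuron content in the Slc32a1 values was not tested.

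Of the membrane retrieval genes, the GTPase Dnm1, which cuts vesicles from the membrane and led this role per kilobase, was at 414, 389 and 579 CPM in Control, 164, 294 and 290.4 CPM in HFD and 133, 78.3 and 371 CPM in HFD+Mino. All 6 mice on the high fat diet, with or without minocycline, were below every Control mouse, and the log2 differences were -0.88 ± 0.48 (SE; edgeR FDR = 0.323) in HFD and -1.25 ± 0.48 (SE; edgeR FDR = 0.182) in HFD+Mino against Control. Amphiphysin (Amph) and the phosphatase synaptojanin (Synj1) differed from Control by 0.44 ± 0.22 and 0.50 ± 0.28 in HFD, with overlap in both.

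The separation of the samples was counted for each gene as well. The HFD mice lay beyond the other 6 for 7 of the 36 genes (19.4%), higher for Rims2, Sv2c, Syn1, Unc13a and Vamp2 and lower for Napa and Syn2, against 23% of all genes tested (13.4% higher and 9.62% lower). HFD and Control did not overlap for 11 genes (30.6%, against 35.7%), 6 higher and 5 lower in HFD (19.7% and 16% of all genes). HFD+Mino and HFD did not overlap for 16 genes (44.4%, against 46.7%), 4 higher and 12 lower in HFD+Mino (23.3% and 23.5% of all genes). HFD+Mino and Control did not overlap for 14 genes (38.9%, against 19.1%), 4 higher and 10 lower in HFD+Mino (8.93% and 10.1% of all genes). The 10 lower genes were Cplx1, Dnm1, Napb, Nsf, Rims1, Slc32a1, Sv2a, Syt11, Syt2 and Vamp1, of which Control replicate 1 was the highest library for Cplx1, Nsf, Syt2 and Vamp1. Leaving out this library, whose oligodendrocyte markers were high and whose Avp and Oxt were near 0, 16 of the 36 genes (44.4%) and 32.5% of all genes did not overlap.

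A further 103 presynaptic genes gave the list its surroundings. Their median log2 fold changes of 0.20, -0.43 and -0.25 in HFD against Control, HFD+Mino against HFD and HFD+Mino against Control lay close to those of the 36 genes, and 12 of them (11.7%) passed the test in at least 1 comparison, against 4.59% of all genes. Cacna1a, the pore of the P/Q-type calcium channel that triggers release, was at 12.1, 14.3 and 18.4 CPM in Control, 2.91, 2.47 and 3.11 CPM in HFD and 10.6, 6.20 and 14.1 CPM in HFD+Mino. It fell in HFD, by 2.40 on the log2 scale (SE 0.35; edgeR FDR = 0.00306), and rose in HFD+Mino against HFD, by 1.86 (SE 0.34; edgeR FDR = 0.00800). Sh3gl3, an endophilin that shapes the neck of retrieved vesicles, was at 82.2, 76.6 and 54.3 CPM in Control, 20.5, 23.2 and 17.0 CPM in HFD and 66.3, 88.7 and 76.7 CPM in HFD+Mino. It fell by 1.81 in HFD (SE 0.24; edgeR FDR = 0.00174) and rose by 1.93 in HFD+Mino against HFD (SE 0.24; edgeR FDR = 0.00158). In HFD against Control, edgeR called 4 of the 103 genes (1.74% of all genes), Apba1 higher and Cacna1a, Sh3gl3 and Sncb lower. In HFD+Mino against HFD it called 10 (4.15% of all genes), among them Cacna1a, Sh3gl3 and the proton pump subunits Atp6v0b and Atp6v0d1 higher, and Erc1, Ppfia3, Rph3a, Sgip1 and Unc13c lower. When any 1 of the 3 HFD mice was left out, edgeR called none of the 103 genes and none of the 36, with 53 to 56 and 11 to 15 of them at an unadjusted p under 0.05 in HFD+Mino against HFD. The shares of all genes at that p were 34%, 32.4% and 31% without HFD replicates 1, 2 and 3. Of all genes, edgeR then called 0.0568%, 0.0779% and 0.0168% in the 3-way test without HFD replicates 1, 2 and 3, 0.335%, 0.406% and 0.408% in HFD against Control, 0.307%, 0.328% and 0.162% in HFD+Mino against HFD and 0% in HFD+Mino against Control.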

How the data were processed

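RNA from PVN punches of 9 mice was measured by RNA sequencing, from cDNA libraries of a low-input kit. The authors deposited raw counts per gene, made with HISAT2 (mm10) and featureCounts and not normalized, and with 0 columns left unused here. Whether reads were counted by strand is not given in the sources used here, and 13 of the 36 genes share 9 to 875 exonic nt with another gene. Rows without a symbol, 958 of 27179, held 0.0785% to 0.0932% of a library's counts. Exon lengths and GC content were taken from GENCODE M21, and promoters and positions from RefSeq GRCm38.p6.

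The tests were made in R 4.3.3 with edgeR 4.0.16 (filterByExpr, TMM, 1 quasi-likelihood fit of all 9 samples, 3 contrasts and a 3-way test, Benjamini-Hochberg adjustment over 17344 genes), with DESeq2 1.42.0 as the alternative, pandas 2.3.3 and Python 3.11.15. SEs are the log2 fold change divided by the root of the F statistic. The code was tested on simulated data. Total counts were 42326213, 33955830 and 30555331 in Control, 17728590, 33485024 and 39916355 in HFD, and 34935469, 30642381 and 34698461 in HFD+Mino. Precision was taken from the spread between mice, since reads carry no molecular identifiers. Every pair of replicates was farther apart than counting error gives, with a chi-square per degree of freedom of at least 21.0.

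Replicate numbers are those of the sample titles. Deviations from the group means correlated between same-numbered Control and HFD+Mino samples (0.121, 0.144 and 0.264), while the other groups' numbers did not (-0.149 to -0.005). Unlike numbers of Control and HFD+Mino gave -0.143 to 0.0193. Some unlike numbers of other groups were as high, with 0.163 for Control replicate 2 and HFD replicate 1. The pairing of Control with HFD+Mino comes from the counts alone, because no label names a shared litter, batch or day.

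The 36 genes, the 103 further presynaptic genes and the marker lists were chosen with earlier results of these data known. The rule for naming gave every sample's value for genes that passed a test, of which there were 0, and for the gene with the highest level per kilobase in each role. The other genes given sample by sample were chosen after their values were seen, as were Timp4 and the families of the shares. Alternatives were RLE size factors, other filters on low counts, Rn45s and the mitochondrial genome left out, each sample left out, the replicate blocks, trends on exon length or GC content removed, an FDR under 0.05 and no fold threshold. The listing of other presynaptic genes under these alternatives, the fold changes of single genes and the wider family sums were added after seeing the data. Some genes of these lists are not reported here.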

Additional observations from a re-analysis of the deposited data

How the results depend on the processing

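None of the 36 genes passed the test in the 4 comparisons with edgeR as reported, and the counts stayed at 0 with RLE size factors, with Rn45s and the mitochondrial genome left out, and with no fold threshold. In the order 3-way test, HFD against Control, HFD+Mino against HFD and HFD+Mino against Control, the counts were 6, 3, 10 and 3 with DESeq2, 3, 1, 6 and 0 without a filter on low counts (5.19%, 1.92%, 7.61% and 0.004% of all genes), 0, 0, 1 and 0 with a mean count of at least 50 (3.01%, 2.55%, 6.76% and 0%), and 6, 3, 10 and 0 at an FDR under 0.05 (13%, 5.77%, 27.4% and 0%). The replicate block in all samples gave 0, 1, 4 and 0 (2.81%, 1.64%, 7.89% and 0% of all genes), and the block in Control and HFD+Mino gave 4, 1, 9 and 0. Removing the trend on exon length gave 1, 1, 1 and 0, removing that on GC content 0, 0, 3 and 0 (3.81%, 2.94%, 9.08% and 0%), and the block together with the length trend 5, 2, 6 and 0 (10.3%, 5.11%, 15.7% and 0%). Leaving out 1 sample gave from 0 to 3, 0 to 1, 0 to 8 and 0 to 4 genes, the highest of each without HFD+Mino replicate 3. The cause of these differences was not tested.

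Of the 103 other presynaptic genes, 12 passed in at least 1 comparison (4.59% of all genes did), and 47 with DESeq2 (25.4%), 22 without a filter (8.24%), 51 at an FDR under 0.05 (28.4%), 19 with the replicate block in all samples (8.22%), 48 with that in Control and HFD+Mino (27.3%), 5 without the length trend (3.51%), 20 without the GC trend (9.75%) and 31 with the block and the length trend together (16.9%). Leaving out 1 sample gave from 0 (any HFD replicate, 0.425% to 0.517%) to 39 (HFD+Mino replicate 3, 23.7%), with 2 without Control replicate 2 (0.973%), 2 without HFD+Mino replicate 1 (1.38%) and 6 without HFD+Mino replicate 2 (3%). The 42 fold changes of single genes were chosen for an unadjusted p under 0.05, so that the same sign under the 19 alternatives that change the fit is no test of their stability. Depth limits mainly the genes at a few CPM, such as Sv2c, Doc2b, Syt2 and Slc17a7, and 3 mice per group limit all.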
